A study of Homo sapiens with 12 samples.

Results

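The D cyclins and the inhibitors of the kinases they activate form the control layer of the G1 phase of the cell cycle, and 10 genes of it were followed here: the D cyclins CCND1, CCND2 and CCND3, the CIP/KIP inhibitors CDKN1A, CDKN1B and CDKN1C, the INK4 inhibitors CDKN2A, CDKN2B and CDKN2C, and the pocket protein gene RB1. They were picked out by symbol, from a list drawn up with earlier results of these data known. All 10 were found among the 62710 genes of the tables and were among the 18355 genes with enough counts to be tested. The cells were 3 established human hepatocellular carcinoma lines, each with 2 libraries after treatment with 20 mM lactate, given as lactic acid, for 24 h and 2 libraries of untreated control cells. PLC/PRF/5, HLF and SNU475 thus give 6 groups and 12 libraries, each line standing for 1 tumour. No label states that replicate libraries are separate cultures, so every p-value reflects the variation among these particular libraries, some of which may be technical.

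In G1, mitogens raise D cyclins, which bind and activate the kinases CDK4 and CDK6. These kinases phosphorylate the RB1 protein, which otherwise holds E2F transcription factors inactive, and E2F release starts the genes of S phase. INK4 proteins bind CDK4 and CDK6 and keep D cyclins off them, whereas CIP/KIP proteins mainly block the cyclin E and cyclin A kinases with CDK2. Loss of CDKN2A or RB1 function, and gain of CCND1 in the chromosome 11q13 amplicon, are recurrent events in liver cancer. The lactate comparison asks how the transcripts of this layer differ after exposure to lactate, in a study whose title concerns lactate, glycolysis and a lactyl mark on histone H4.

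Libraries held 16533437 to 22187849 estimated counts. Mitochondrially encoded transcripts took 3.39% to 15.05% of them, and in SNU475 this share moved with the library number rather than with lactate, at 8.5% and 13.88% in lactate libraries and 8.0% and 15.05% in control libraries. A chi-square test of counts between replicate libraries gave 12.4 to 116 per degree of freedom, highest in SNU475, so no pair was a copy. Both SNU475 libraries numbered 2 were therefore also left out together. Hepatocyte markers set the lines apart: the summed level of the 10 genes was 4494 to 7066 CPM (counts scaled to a common library size) in lactate-treated and 3462 to 5013 CPM in control PLC/PRF/5 cells, against at most 12.9 CPM in any HLF or SNU475 library, where APOA1, APOB and TTR were at 0. The summed level of the 4 stellate cell or fibroblast markers reached 1749 to 2570 CPM in SNU475 and at most 132 CPM in any library of the other lines. COL1A1 and ACTA2 made up most of the SNU475 sum, averaging 1351 and 671 CPM in control cells. DCN was also highest in SNU475, but PDGFRB averaged 24 CPM in control HLF and 23.4 CPM in control SNU475 cells. The part of these library and lineage differences in the results below was not tested.

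**Figure D1:**
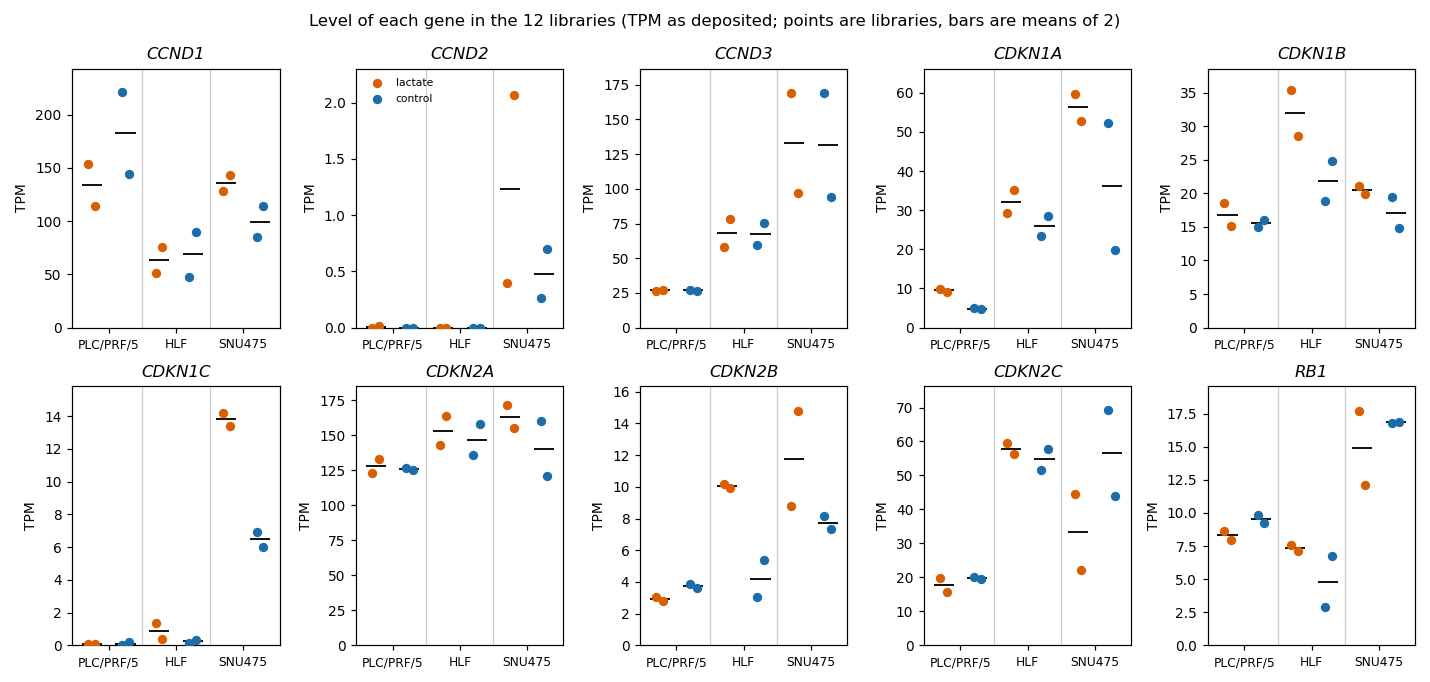
Level of each of the 10 genes in TPM (vertical axis from 0) in every library, by line and with lactate left of control; points are single libraries and bars the mean of 2. CDKN1A in control PLC/PRF/5 cells lay at 4.96 and 4.76 TPM, the lowest of the 3 lines, and CDKN1C was above 2 TPM in SNU475 alone.

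Levels of different genes were compared in deposited TPM values (RSEM's length-scaled transcript abundance), which take transcript length into account. Levels of 1 gene in different libraries were compared in CPM on library sizes scaled by the trimmed mean of M-values (TMM), the scale of the test, and fold changes are log2 values with their standard error from the quasi-likelihood fit of edgeR. A difference was called at a Benjamini-Hochberg adjusted p under 0.05 over all genes tested. The 3 comparisons between untreated lines share groups and are not independent of each other.

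Of the D cyclins, CCND1 and CCND3 were transcribed in every library, and CCND2 was near or at 0 outside SNU475. CCND1 stood at 221 and 144 TPM in control PLC/PRF/5 cells, at 47.7 and 90.2 TPM in control HLF cells and at 85.3 and 114 TPM in control SNU475 cells. CCND3 was instead lowest in PLC/PRF/5, with 27.3 and 26.5 TPM in control PLC/PRF/5 cells, 59.3 and 75.2 TPM in control HLF cells and 169 and 93.8 TPM in control SNU475 cells. CCND3 accordingly made up 11% and 15.6% of all D cyclin TPM in control PLC/PRF/5 cells, 55.4% and 45.5% in control HLF cells and 66.3% and 45% in control SNU475 cells. PLC/PRF/5 cells thus had a D cyclin pool made mostly of CCND1. Shares in the lactate libraries lay in the same ranges or close to them, at 14.8% and 19% CCND3 in PLC/PRF/5, 53.2% and 50.8% in HLF and 56.9% and 40.1% in SNU475.

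On the CPM scale of the test, CCND1 was at 568 and 360 CPM in control PLC/PRF/5 cells, 180 and 247 CPM in control HLF cells and 284 and 458 CPM in control SNU475 cells. PLC/PRF/5 lay above HLF without overlap, and overlapped SNU475. CCND1 was higher in PLC/PRF/5 than in HLF by 1.12 ± 0.34 (SE, log2; edgeR adjusted p = 0.0202). The call was lost without control library 1 of HLF (0.95, adjusted p = 0.134) or of PLC/PRF/5 (0.75, adjusted p = 0.177). HLF and SNU475 were not separated at the threshold (−0.80 ± 0.34, edgeR adjusted p = 0.0834), although DESeq2 called this difference (adjusted p = 0.044), as did edgeR with a block for library number (adjusted p = 0.00103). PLC/PRF/5 and SNU475 differed by 0.32 ± 0.34, which was not called (edgeR adjusted p = 0.456).

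The genes beside CCND1 in 11q13 followed its order only in part. Most lay lower in HLF than in SNU475, as CCND1 did, but most also lay lower in PLC/PRF/5 than in SNU475. Among the 8 of the 10 listed neighbours that could be tested, 7 were called lower in HLF than in SNU475, as were 21.9% of all genes. FGF19 and ANO1 are among them. Both had 0 counts in HLF and enough counts for the test through SNU475 alone, so their lower calls were fixed by that filter. In PLC/PRF/5 over SNU475, 5 were called lower, as were 26.3% of all genes. In the same comparison 1 was called higher, as were 4110 of the 18355 genes tested. Any lower call of FGF19 or ANO1 there was fixed in the same way. FADD, an adaptor of death receptors, averaged 35.1 CPM in control PLC/PRF/5 cells, 50.7 CPM in control HLF cells and 218 CPM in control SNU475 cells. LTO1, a gene of ribosome maturation next to CCND1, averaged 14.4 CPM in control PLC/PRF/5 cells, 12.6 CPM in control HLF cells and 71.4 CPM in control SNU475 cells. CTTN, which encodes the actin-binding protein cortactin, averaged 174 CPM in control PLC/PRF/5 cells, 335 CPM in control HLF cells and 715 CPM in control SNU475 cells. SNU475 was the highest line for each of these 3 neighbours, and PLC/PRF/5 over SNU475 gave −2.64 ± 0.27 for FADD (edgeR adjusted p = 1.49e-05), whereas the CCND1 levels of PLC/PRF/5 and SNU475 overlapped.

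CCND2, the D cyclin typical of lymphoid and some germ cells, had 0 counts in all 4 HLF libraries and 1 count in all 4 PLC/PRF/5 libraries together. Control SNU475 cells had 1.35 and 4.54 CPM, from 103 counts in all. The difference of control HLF cells from control SNU475 cells is therefore a bound, at least 38.2-fold lower at 3 counts over the group, and that of PLC/PRF/5 is at least 36.9-fold lower. Even in SNU475 CCND2 reached only 2.07 TPM. CCND3 differed in all 3 comparisons between untreated lines: it was lower in PLC/PRF/5 than in HLF (−1.66 ± 0.22, edgeR adjusted p = 0.000122), lower in HLF than in SNU475 (−1.22 ± 0.22, adjusted p = 0.00122), and 7.34-fold lower in PLC/PRF/5 than in SNU475 (−2.88 ± 0.23, adjusted p = 2.73e-06). The CCND3 groups did not overlap in any of them.

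**Figure D2:**
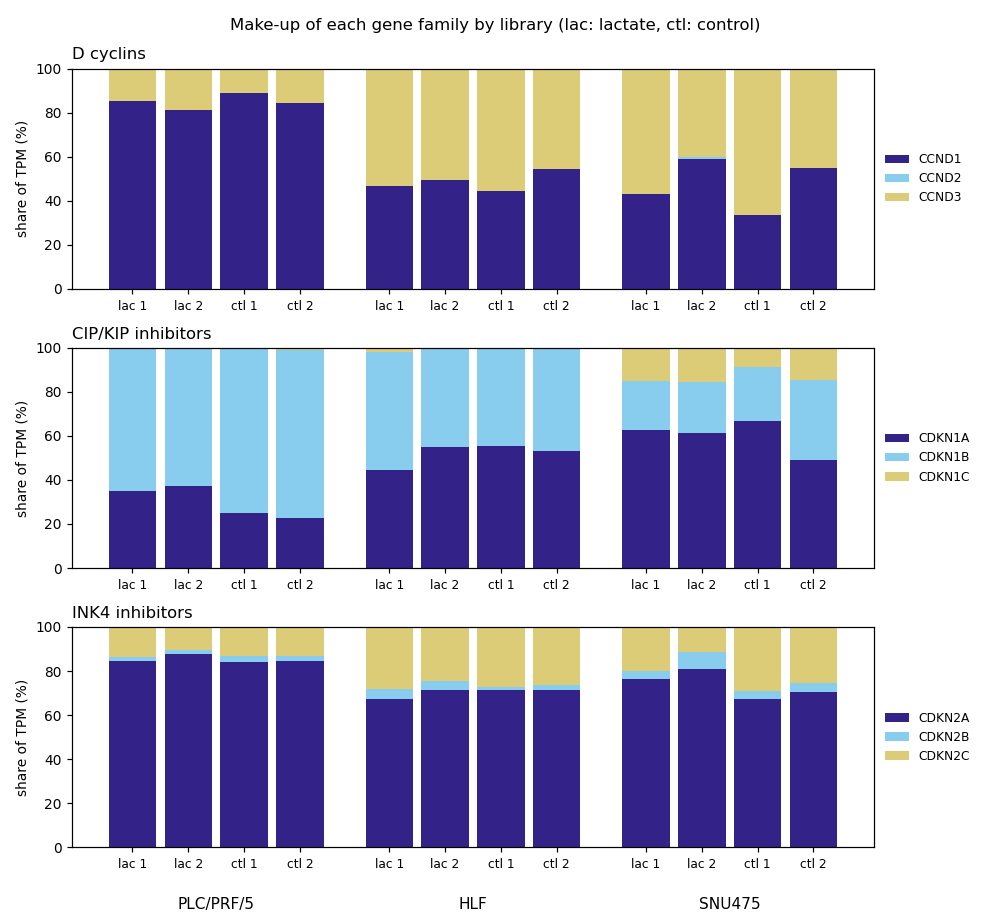
Share of each gene in the summed TPM of its family (vertical axes, percent, 0 to 100) in the 12 libraries, by line and with lactate (lac) left of control (ctl). CCND3 held 11% to 19% of D cyclin TPM in PLC/PRF/5 and at least 40.1% in every other library, and CDKN2A held 67.2% to 87.8% of the TPM of the 3 INK4 genes shown.

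The CIP/KIP inhibitors were led by CDKN1A and CDKN1B, and CDKN1C added to them in SNU475. Their summed level was 20 and 21 TPM in control PLC/PRF/5 cells, 42.6 and 53.9 TPM in control HLF cells and 78.8 and 40.8 TPM in control SNU475 cells. CDKN1A encodes p21, an inhibitor induced by DNA damage and by other stresses. It was at 6.43 and 5.13 CPM in control PLC/PRF/5 cells, 42.5 and 38.8 CPM in control HLF cells and 85.8 and 41 CPM in control SNU475 cells. PLC/PRF/5 lay far below both other lines, and HLF and SNU475 overlapped. The level in PLC/PRF/5 was 7.04-fold lower than in HLF (−2.82 ± 0.32, edgeR adjusted p = 3.65e-05) and 11-fold lower than in SNU475 (−3.46 ± 0.33, adjusted p = 9.11e-06). Without control library 1 of SNU475 the difference from SNU475 was −2.83. HLF over SNU475 gave −0.64 ± 0.30, which was not called (edgeR adjusted p = 0.107) and rested on the control libraries of SNU475. It was −0.01 without library 1 and −1.10 without library 2, which had 15.05% mitochondrial transcripts. Without both SNU475 libraries numbered 2, in lactate and in control cells, it was −1.12. In each of these cases 1 library stood for the control group of SNU475.

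CDKN1B encodes p27, which accumulates in resting cells and is controlled largely through its destruction by the SKP2 ligase. It varied least among the CIP/KIP genes, at 22.8 and 23.9 CPM in control PLC/PRF/5 cells, 39.8 and 39.8 CPM in control HLF cells and 37.7 and 35.6 CPM in control SNU475 cells. It was lower in PLC/PRF/5 than in HLF (−0.77 ± 0.20, edgeR adjusted p = 0.00863) and than in SNU475 (−0.65 ± 0.20, adjusted p = 0.0181). Without control library 1 or 2 of PLC/PRF/5 neither comparison was called (adjusted p = 0.068 and 0.0502 against HLF, 0.104 and 0.0784 against SNU475), and without control library 1 of SNU475 the second was not (0.0674). HLF over SNU475 was 0.12 ± 0.20 and not called (edgeR adjusted p = 0.668). SKP2 transcripts averaged 49.4 CPM in control PLC/PRF/5 cells, 16.3 CPM in control HLF cells and 33.3 CPM in control SNU475 cells.

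CDKN1C encodes p57, an imprinted inhibitor expressed from the maternal allele in 11p15. Its counts were 0 and 2 in the control PLC/PRF/5 libraries and 2 and 5 in the control HLF libraries, against 281 in both control SNU475 libraries together. Control SNU475 cells thus had 8.89 and 7.08 CPM. The level in HLF was 42.9-fold lower than in SNU475 (−5.42 ± 0.66), at −6.24 without control library 2 of HLF. CDKN1C had enough counts for the test through SNU475, so its lower calls against that line were fixed by the filter. In PLC/PRF/5 the ratio of the 2 counts to the 281 was 151-fold lower, with an exact 95% counting interval of 41.5- to 1254-fold. Of its listed neighbours in 11p15, KCNQ1OT1, the non-coding RNA made from the paternal allele of the domain, averaged 2.82 CPM in control PLC/PRF/5 cells, 2.26 CPM in control HLF cells and 7.33 CPM in control SNU475 cells. PHLDA2, another gene expressed from the maternal allele, averaged 13 CPM in control PLC/PRF/5 cells, 20.2 CPM in control HLF cells and 63.8 CPM in control SNU475 cells and was called in all 3 comparisons. H19, a maternally expressed RNA of the neighbouring domain, had a different order, with 132 CPM on average in control PLC/PRF/5 cells against 0.474 CPM in control HLF and 3.43 CPM in control SNU475 cells.

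Among the 3 INK4 genes followed, CDKN2A held 67.2% to 87.8% of the summed TPM in the 12 libraries. The fourth INK4 gene, CDKN2D, was counted with the G1 partners and is not in this sum. CDKN2A encodes p16INK4a and, from an upstream first exon in another reading frame, p14ARF, an inhibitor of MDM2. The gene totals sum the transcripts of both starts, 14 in the tables, so they cannot separate p16 from p14ARF. CDKN2A had 62.2 and 59.2 CPM in control PLC/PRF/5 cells, 96 and 82.3 CPM in control HLF cells and 104 and 86.9 CPM in control SNU475 cells, so no line lacked the transcripts. It was lower in PLC/PRF/5 than in HLF (−0.55 ± 0.19, edgeR adjusted p = 0.0312) and than in SNU475 (−0.66 ± 0.19, adjusted p = 0.0127). The call against HLF was lost without control library 1 of HLF (adjusted p = 0.188) or either control library of PLC/PRF/5 (0.109 and 0.153), and that against SNU475 without control library 1 of SNU475 (0.0835) or either of PLC/PRF/5 (0.0583 and 0.085). HLF and SNU475 differed by −0.10 ± 0.19, which was not called (edgeR adjusted p = 0.696). MTAP, the gene commonly lost together with CDKN2A when 9p21 is deleted, averaged 26.4 CPM in control PLC/PRF/5 cells, 49.1 CPM in control HLF cells and 44.1 CPM in control SNU475 cells.

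CDKN2B encodes p15, the INK4 protein induced by TGF-beta. It was at 5.98 and 6.77 CPM in control PLC/PRF/5 cells, 10.3 and 9.06 CPM in control HLF cells and 21.7 and 26.1 CPM in control SNU475 cells, with no overlap between lines. It was lower in PLC/PRF/5 than in SNU475 (−1.90 ± 0.30, edgeR adjusted p = 0.000352) and lower in HLF than in SNU475 (−1.30 ± 0.29, adjusted p = 0.0047). PLC/PRF/5 over HLF gave −0.61 ± 0.30, not called by edgeR (adjusted p = 0.123) but called with the block for library number (adjusted p = 0.0475) and without both SNU475 libraries numbered 2 (adjusted p = 0.0407). CDKN2B overlaps the antisense RNA CDKN2B-AS1, which averaged 3.51 CPM in control PLC/PRF/5 cells, 2.99 CPM in control HLF cells and 3.13 CPM in control SNU475 cells. The library kit marks strand, but the strand setting of the counting is not given in the sources used here, so reads of the 2 genes could have been mixed where they overlap. CDKN2C encodes p18, which is itself an E2F target and rises in cycling cells. It had 22 and 21.3 CPM in control PLC/PRF/5 cells, 74.1 and 68 CPM in control HLF cells and 80 and 54 CPM in control SNU475 cells, and was lower in PLC/PRF/5 than in HLF (−1.71 ± 0.28, edgeR adjusted p = 0.000464) and than in SNU475 (−1.63 ± 0.28, adjusted p = 0.000592).

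RB1 was lowest in HLF. It had 29.9 and 27.9 CPM in control PLC/PRF/5 cells, 10.6 and 16.1 CPM in control HLF cells and 65.2 and 83.2 CPM in control SNU475 cells, with no overlap between lines. Each pair of lines was called: PLC/PRF/5 was higher than HLF (1.12 ± 0.23, edgeR adjusted p = 0.00215) and lower than SNU475 (−1.36 ± 0.22, adjusted p = 0.000486), and HLF was 5.57-fold lower than SNU475 (−2.48 ± 0.23, adjusted p = 1.37e-05). In TPM, RB1 was 9.86 and 9.22 in control PLC/PRF/5 cells, 2.9 and 6.72 in control HLF cells and 16.8 and 16.9 in control SNU475 cells. LPAR6, a lysophosphatidic acid receptor gene that lies on the opposite strand within an RB1 intron, averaged 4.51 CPM in control PLC/PRF/5 cells, 0.0745 CPM in control HLF cells and 1.16 CPM in control SNU475 cells. Without the strand setting of the counting, reads of LPAR6 and of unspliced RB1 RNA cannot be told apart. SUCLA2 at the same locus, which encodes a subunit of succinyl-CoA ligase, averaged 20.7 CPM in control PLC/PRF/5 cells, 25.6 CPM in control HLF cells and 31.7 CPM in control SNU475 cells.

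**Figure D3:**
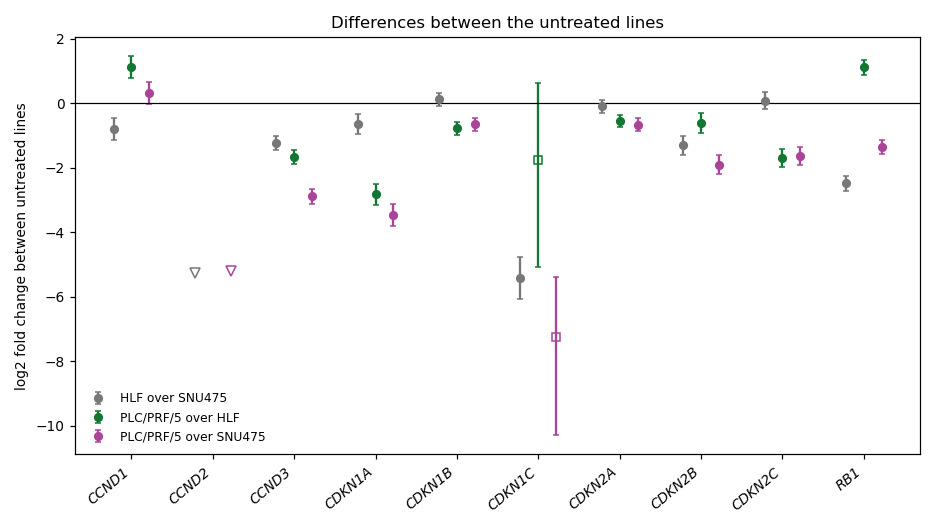
Log2 fold change of each gene between untreated lines (vertical axis), as PLC/PRF/5 over HLF, PLC/PRF/5 over SNU475 and HLF over SNU475. Filled circles are edgeR values with their SE, open triangles the bounds for CCND2 against SNU475 (at most 3 counts over the group), and open squares count ratios of CDKN1C with exact 95% intervals; CCND2 in PLC/PRF/5 over HLF has no value. The SNU475 comparisons lie mostly below 0, with a median of −1.76 for PLC/PRF/5 and −1.01 for HLF. Both medians include CCND2 and CDKN1C, which had enough counts for the test through SNU475.

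Counted together, 7 of the 10 genes were called in PLC/PRF/5 over HLF (2 higher, 5 lower), 9 in PLC/PRF/5 over SNU475 (all lower) and 5 in HLF over SNU475 (all lower). Over all genes tested, edgeR called 43% in PLC/PRF/5 over HLF (21.7% higher, 21.3% lower), 48.7% in PLC/PRF/5 over SNU475 (26.3% lower) and 39% in HLF over SNU475 (21.9% lower). Large shares of the transcriptome thus separate these lines, and the members' counts are to be read against that. The median fold change of the members was −0.77, −1.76 and −1.01, against 0.00, −0.03 and 0.00 over all genes. CCND2 and CDKN1C had enough counts for the test through SNU475, the line where they are high, so their lower calls against it (2 of the 9 and 2 of the 5) were fixed by that filter. The medians of −1.76 and −1.01 include both genes and are lowered by them. The list of 21 G1 partners holds kinases, E cyclins, pocket proteins, E2F and DP factors, the INK4 gene CDKN2D and the activators CDC25A, SKP2 and CKS1B. Of these, 6 were called higher and 1 lower in PLC/PRF/5 than in HLF, 7 higher and 0 lower in PLC/PRF/5 than in SNU475, and 3 higher and 2 lower in HLF than in SNU475. Of the 18355 genes tested, 4110 were called higher in PLC/PRF/5 than in SNU475 and 3152 higher in HLF than in SNU475. E2F5, a repressor E2F, averaged 39.2 CPM in control PLC/PRF/5 cells, 17.5 CPM in control HLF cells and 3.98 CPM in control SNU475 cells. CDK4, the kinase partner of D cyclins, averaged 183 CPM in control PLC/PRF/5 cells, 293 CPM in control HLF cells and 155 CPM in control SNU475 cells.

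After lactate, none of the 10 genes passed the threshold of the main edgeR fit in any line, in the mean of the 3 effects or in the test of a difference between lines. In edgeR, 0% of all genes were called in each of the 3 lines and in the interaction of lactate with line, and 0.42% for the mean effect. DESeq2 called none of the 10 either. Neither of these fits paired libraries by number. With the block for library number, edgeR called 1268 of all genes for the mean effect, among them CDKN2C (adjusted p = 0.0333). At an unadjusted p under 0.05, 1 member passed in PLC/PRF/5 (5.92% of all genes did), 2 in HLF (6.28%), 3 in SNU475 (11.6%), 4 for the mean effect (15.8%) and 0 for the interaction (3.51%). The median fold change of the members with a value was −0.04 in PLC/PRF/5, 0.02 in HLF and 0.36 in SNU475, against 0.03, 0.00 and 0.01 over all genes. The values below are therefore differences that did not pass the correction in the main fit.

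**Figure D4:**
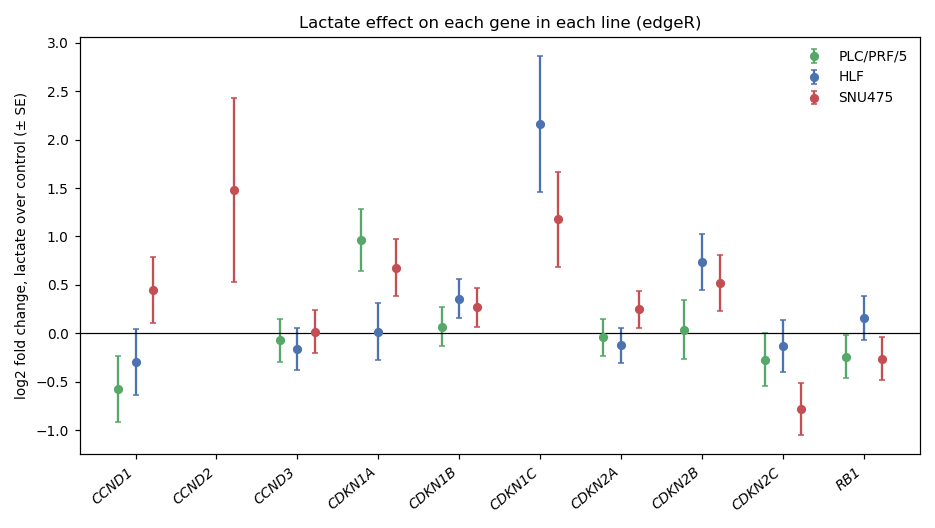
Log2 fold change, lactate over control, of each gene in each line with its SE (edgeR; vertical axis). CCND2 is shown for SNU475 alone and CDKN1C for HLF and SNU475, since the other groups held 4 counts or fewer; none of the values passed an adjusted p of 0.05, and CDKN2C was below 0 in each line.

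Among the CIP/KIP genes, CDKN1A was at 11 and 11.5 CPM in lactate-treated PLC/PRF/5 cells, against 6.43 and 5.13 CPM in their controls. The groups did not overlap, as for 28.5% of all genes in this direction and line. The fold change was 0.96 ± 0.32 (edgeR unadjusted p = 0.0107, adjusted p = 0.647), and the adjusted p was 0.0197 when only these 4 libraries were fitted and 0.0424 without both SNU475 libraries numbered 2. In SNU475, CDKN1A had 91.1 and 112 CPM with lactate and 85.8 and 41 CPM in control cells, and its fold change of 0.68 ± 0.29 (edgeR adjusted p = 0.408) was 0.08 without both libraries numbered 2. In HLF it had 37 and 45.7 CPM with lactate and 42.5 and 38.8 CPM in control cells, a fold change of 0.02 ± 0.29 (edgeR adjusted p = 1). In TPM the HLF groups were apart, at 29.2 and 35.2 TPM with lactate and 23.5 and 28.6 TPM without. The test of a difference between lines was not passed (edgeR adjusted p = 1). The mean effect was 0.55 ± 0.17 (edgeR adjusted p = 0.154). It passed with no filter on low counts (adjusted p = 0.0259), and the adjusted p came to 0.0538 in DESeq2 and 0.0563 with the block for library number. Without control library 1 of SNU475, where 1 library stood for the group, the mean effect was 0.76.

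CDKN1B had 56.1 and 45.9 CPM with lactate and 39.8 and 39.8 CPM without in HLF, and 38.9 and 49.5 CPM with lactate and 37.7 and 35.6 CPM without in SNU475. In PLC/PRF/5 the lactate libraries had 26.3 and 22.7 CPM and the controls 22.8 and 23.9 CPM. Lactate libraries lay above their controls without overlap in HLF and SNU475, as for 19.6% and 16.2% of all genes, and overlapped them in PLC/PRF/5. The mean effect was 0.23 ± 0.11 (edgeR adjusted p = 0.352). CDKN1C had 15.4 and 20.9 CPM in lactate-treated SNU475 cells against 8.89 and 7.08 CPM in controls, a fold change of 1.18 ± 0.49 (edgeR adjusted p = 0.381). In HLF it rested on 26 and 10 counts with lactate and 2 and 5 counts in controls (2.16 ± 0.70, edgeR adjusted p = 0.734), and ranged over 1.35 to 2.97 with single libraries left out. In PLC/PRF/5 there were 4 counts against 2, a ratio of 1.66 with an exact 95% counting interval of 0.238 to 18.3. Without both SNU475 libraries numbered 2, the CDKN1C fold change in SNU475 was 0.79.

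Summed over the family, CIP/KIP transcripts stood at 28.6 and 24.4 TPM in lactate-treated and 20 and 21 TPM in control PLC/PRF/5 cells. In HLF the sums were 66 and 64.2 TPM with lactate and 42.6 and 53.9 TPM in control cells, and in SNU475 they were 95 and 86.2 TPM with lactate and 78.8 and 40.8 TPM in control cells. The lactate libraries thus lay above the control libraries without overlap in each line. In CPM no single CIP/KIP gene did so, and 2.72% of all genes did. That share is of single genes in CPM and gives no background for a sum in TPM. The sum was formed after the members were chosen and was not tested. CDKN1A made up 34.9% and 37.4% of it in lactate-treated PLC/PRF/5 cells, against 24.8% and 22.6% in controls.

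In the INK4 family, CDKN2C was below its controls in every line on the CPM scale. It had 19.1 and 16.9 CPM with lactate and 22 and 21.3 CPM without in PLC/PRF/5, 64.7 and 65.4 CPM with lactate and 74.1 and 68 CPM without in HLF, and 50.3 and 27.7 CPM with lactate and 80 and 54 CPM without in SNU475. Groups did not overlap in any of the 3 lines, which held for 3.37% of all genes in this direction. In TPM they overlapped in each line, for example in HLF with 59.6 and 56.2 TPM with lactate and 51.6 and 57.9 TPM without. The fold change was −0.27 ± 0.27 in PLC/PRF/5, −0.13 ± 0.27 in HLF and −0.78 ± 0.27 in SNU475 (edgeR adjusted p = 0.984, 1 and 0.31). The mean effect was −0.39 ± 0.16 (edgeR adjusted p = 0.252), and passed with the block for library number (−0.40, adjusted p = 0.0333). Without lactate library 1 of SNU475 the mean effect was −0.56. The fold change in SNU475 was −1.28 without that library, where 1 library stood for the lactate group.

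CDKN2B had 18.1 and 14.3 CPM in lactate-treated HLF cells against 10.3 and 9.06 CPM in controls, a fold change of 0.74 ± 0.29 (edgeR adjusted p = 0.773). In SNU475 it had 24.6 and 43.9 CPM with lactate and 21.7 and 26.1 CPM without, and in PLC/PRF/5 6.62 and 6.53 CPM with lactate and 5.98 and 6.77 CPM without. On the CPM scale the groups were apart in HLF alone, as for 19.6% of all genes in this direction and line. The fold change in SNU475 was 0.52 ± 0.29 (edgeR adjusted p = 0.513), and it ranged over 0.03 to 0.88 with single libraries left out. The highest value was that without lactate library 1 of SNU475, where 1 library stood for the group. The mean effect of 0.43 ± 0.17 was not called (edgeR adjusted p = 0.239), and it was 0.55 without lactate library 1 of SNU475. The estimated transcript length of CDKN2B differed between libraries, so TPM and CPM part here, and in TPM the groups were apart in each line. Lactate libraries were higher in HLF (10.2 and 9.93 TPM against 3.07 and 5.37 TPM) and in SNU475 (8.76 and 14.8 TPM against 8.13 and 7.33 TPM). In PLC/PRF/5 they were lower, at 3.03 and 2.8 TPM with lactate and 3.87 and 3.59 TPM in controls. CDKN2A had 55.9 and 62.1 CPM with lactate and 62.2 and 59.2 CPM without in PLC/PRF/5, 74.5 and 89 CPM with lactate and 96 and 82.3 CPM without in HLF, and 104 and 123 CPM with lactate and 104 and 86.9 CPM without in SNU475. Its mean effect was 0.03 ± 0.11 (edgeR adjusted p = 1).

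The D cyclins moved in no shared direction. CCND1 had 357 and 269 CPM in lactate-treated PLC/PRF/5 cells against 568 and 360 CPM in controls, 133 and 216 CPM with lactate against 180 and 247 CPM without in HLF, and 406 and 610 CPM with lactate against 284 and 458 CPM without in SNU475. The fold change was −0.57 ± 0.34, −0.29 ± 0.34 and 0.45 ± 0.34 in these lines. The interaction of lactate with line was not called (edgeR adjusted p = 1). Library number split CCND1 within HLF and SNU475 more than lactate did, with the library numbered 2 higher in both conditions. CCND3 had 28.1 and 27.8 CPM in lactate-treated PLC/PRF/5 cells against 29.8 and 28.9 CPM in controls, 70.2 and 95.8 CPM with lactate against 93.6 and 91.9 CPM without in HLF, and 243 and 194 CPM with lactate against 254 and 177 CPM without in SNU475, a mean effect of −0.07 ± 0.13 (edgeR adjusted p = 0.891). CCND2 had 1.99 and 14.5 CPM in lactate-treated SNU475 cells against 1.35 and 4.54 CPM in controls, and the fold change of 1.48 ± 0.95 (edgeR adjusted p = 0.594) was 0.55 without both libraries numbered 2 and −0.57 without lactate library 2.

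RB1 had 24.8 and 24.1 CPM in lactate-treated PLC/PRF/5 cells against 29.9 and 27.9 CPM in controls, and 64.3 and 59.3 CPM in lactate-treated SNU475 cells against 65.2 and 83.2 CPM in controls. In HLF it had 15.1 and 14.7 CPM with lactate and 10.6 and 16.1 CPM without. Lactate libraries lay below their controls without overlap in PLC/PRF/5 and SNU475, as for 21.8% and 15.4% of all genes, but not in HLF. In TPM the SNU475 groups overlapped, and HLF had 7.55 and 7.1 TPM with lactate and 2.9 and 6.72 TPM without. The mean effect was −0.11 ± 0.13 (edgeR adjusted p = 0.746).

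Around these genes, no gene of the listed partners, targets or regulators was called for the mean lactate effect either, and the lists are given by their counts beside the 54.2% of all genes that were above 0, with a median of 0.03. All these lists were drawn up with earlier results of these data known, so their counts are a description. Of 15 E2F target genes of S phase, 0 were above and 15 below 0, with a median of −0.31. MCM5, a subunit of the replicative helicase, averaged 153 CPM with lactate and 201 CPM without in PLC/PRF/5, 179 CPM with lactate and 235 CPM without in HLF and 88.5 CPM with lactate and 139 CPM without in SNU475, a mean effect of −0.48 ± 0.12 (edgeR adjusted p = 0.0949). Of 21 G1 partners, 6 were above and 15 below 0. CDK4 averaged 144 CPM with lactate and 183 CPM without in PLC/PRF/5, 220 CPM with lactate and 293 CPM without in HLF and 118 CPM with lactate and 155 CPM without in SNU475 (−0.39 ± 0.10, edgeR adjusted p = 0.102). RBL2, the RB1 relative that acts in resting cells, averaged 37.9 CPM with lactate and 27.4 CPM without in PLC/PRF/5, 55.8 CPM with lactate and 35.1 CPM without in HLF and 40.3 CPM with lactate and 30.2 CPM without in SNU475 (0.52 ± 0.16, adjusted p = 0.15).

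Of 10 FOXO target genes other than CDKN1B, 10 were above 0 for the mean effect, with a median of 0.65. Within single lines, 7 were above and 3 below 0 in PLC/PRF/5, and 9 were above and 1 below in each of HLF and SNU475. KLF9, a transcription factor gene also driven by glucocorticoids, averaged 19 CPM with lactate and 13.7 CPM without in PLC/PRF/5, 17.3 CPM with lactate and 8.54 CPM without in HLF and 174 CPM with lactate and 32.9 CPM without in SNU475, where the lactate libraries were far apart at 60.1 and 288 CPM (mean effect 1.30 ± 0.29, edgeR adjusted p = 0.0752). PIK3IP1, an inhibitor of PI3 kinase, averaged 1.38 CPM with lactate and 0.34 CPM without in PLC/PRF/5, 11.3 CPM with lactate and 6.32 CPM without in HLF and 8.48 CPM with lactate and 2.69 CPM without in SNU475 (1.49 ± 0.39, adjusted p = 0.107). Among 20 regulators of the members, 16 were above 0, with a median of 0.08, but in PLC/PRF/5 alone 8 were above and 12 below 0, with a median of −0.12. MXI1, a MYC antagonist, came nearest to the threshold: it averaged 16.1 CPM with lactate and 8.84 CPM without in PLC/PRF/5, 18.3 CPM with lactate and 8.29 CPM without in HLF and 9.27 CPM with lactate and 5.74 CPM without in SNU475 (0.90 ± 0.18, edgeR adjusted p = 0.0505).

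The 250 bases before the start of 3 genes that lay higher without overlap in at least 1 line are shown for reference, with the pair of CDKN2A starts that the gene total adds together. They are RefSeq sequences on GRCh38.p14, written 5′ to 3′ on the strand of the gene. Capitals mark GC boxes, the letters GGGCGG or CCGCCC, which the factor SP1 binds and which 42.6% of 35116 promoters of this length hold.
CDKN1A, chr6:36678464-36678713, plus strand: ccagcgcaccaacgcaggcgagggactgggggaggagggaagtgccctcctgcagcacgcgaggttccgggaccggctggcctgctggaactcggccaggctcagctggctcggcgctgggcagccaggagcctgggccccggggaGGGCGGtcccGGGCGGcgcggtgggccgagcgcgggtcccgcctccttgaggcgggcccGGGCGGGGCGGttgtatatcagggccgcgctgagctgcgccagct
CDKN1B, chr12:12717118-12717367, plus strand: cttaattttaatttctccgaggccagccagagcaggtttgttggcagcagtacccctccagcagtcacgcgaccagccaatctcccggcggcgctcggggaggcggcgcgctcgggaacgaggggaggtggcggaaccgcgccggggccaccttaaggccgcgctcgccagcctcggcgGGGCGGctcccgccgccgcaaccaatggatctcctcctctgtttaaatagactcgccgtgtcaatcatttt
CDKN2B, chr9:22009306-22009555, minus strand: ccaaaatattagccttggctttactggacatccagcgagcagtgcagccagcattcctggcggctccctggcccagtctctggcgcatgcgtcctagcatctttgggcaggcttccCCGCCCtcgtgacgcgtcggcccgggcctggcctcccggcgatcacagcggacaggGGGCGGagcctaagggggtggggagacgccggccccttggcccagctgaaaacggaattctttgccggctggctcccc
CDKN2A, p14ARF start, chr9:21995325-21995574, minus strand: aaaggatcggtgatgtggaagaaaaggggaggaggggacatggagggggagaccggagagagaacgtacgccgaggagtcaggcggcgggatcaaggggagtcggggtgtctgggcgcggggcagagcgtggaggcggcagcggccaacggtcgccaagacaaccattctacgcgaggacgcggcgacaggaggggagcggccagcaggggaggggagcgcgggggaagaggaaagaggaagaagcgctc
CDKN2A, p16INK4a start, chr9:21974858-21975107, minus strand: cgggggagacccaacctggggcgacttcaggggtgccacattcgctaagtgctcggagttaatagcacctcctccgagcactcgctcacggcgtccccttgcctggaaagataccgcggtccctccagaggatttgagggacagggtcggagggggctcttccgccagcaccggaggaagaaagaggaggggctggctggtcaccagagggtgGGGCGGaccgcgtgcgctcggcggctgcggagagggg

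CDKN1A had 4 GC boxes in this window, with first bases 104, 94, 45 and 40 bases before the start. CDKN2B had 2, at 134 and 78 bases, and CDKN1B had 1, at 71 bases, with a CCAAT box (CCAAT or ATTGG, in 32% of promoters) at 174 and at 50 bases. The p16INK4a start had 1 GC box, at 37 bases, and the p14ARF start had none of these letters in the window. The G and C content was 76.4% for CDKN1A, 66.4% for CDKN2B, 64.4% for CDKN1B and 66.8% for each CDKN2A start, against a median of 58% over all promoters. A match of letters is a description and not a bound site. Promoters of 7 of the 10 genes were found in the table, and CCND1, CCND2 and CDKN1C are named here without one.

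Within lines, some members varied together from library to library. After subtracting each line's mean of log2 CPM, CDKN1B and CDKN2B correlated at 0.90, CDKN1B and CDKN1C at 0.85 and CDKN1C and CDKN2B at 0.78 over the 12 libraries, and CDKN2B and CDKN2C at −0.72. These 12 points share lines, treatment and library number and are given as a description. The genes most like a member on the same measure, of all genes averaging 2 CPM or more, were COQ10A (0.95) and PPOX (0.92) for CDKN1A, LCA5 (0.96) and ENPP4 (0.95) for CDKN1B, and ZNF699 (0.96) and TIAM2 (0.95) for CDKN1C. For the INK4 genes they were TMEM81 (0.93) and MEAK7 (0.91) for CDKN2A, IL17RD (0.99) and TSPAN13 (0.96) for CDKN2B, and BFSP1 (0.98) and ASB16-AS1 (0.96) for CDKN2C. For CCND1 they were MCMBP (0.95) and SAR1A (0.92), for CCND3 VTN (0.96) and MMP7 (0.95), and for RB1 PRDM2 (0.94) and ANKRD28 (0.93). For CCND2, which had 1 count in all 8 HLF and PLC/PRF/5 libraries together, TC2N (0.98) and RGMB (0.98) rest on the 4 SNU475 libraries, of which 1 stood at 14.5 CPM.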

How the data were processed

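RNA of 12 libraries was profiled after TRIzol extraction, DNase treatment and a directional library kit, per the labels' protocols. The expected counts and the TPM values were made with RSEM and deposited as 1 gene table per library, per the file headers. Tools named in the submitters' processing notes, with no version, are FastQC, STAR, RSEM and DESeq2. The notes also name mouse builds, although all 62757 rows carry human identifiers; for the human build and annotation, nothing is given in the sources used here. Of the deposited counts, 92.5% were whole within 0.005; reads shared between genes make the rest, among the members in CCND1, CCND2 and CDKN2A.

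Counts of 47 pseudoautosomal Y copies were added to the X copies, and counts were rounded. After filterByExpr by group, 18355 genes were fitted over all 12 libraries as 6 groups with edgeR 4.0.16 in R 4.3.3 (quasi-likelihood test; TMM factors 0.794 to 1.17, common biological coefficient of variation 0.26, 6 residual degrees of freedom), adjusted by Benjamini-Hochberg over all genes and called at 0.05. Contrasts were lactate in each line, its mean, its interaction with line, and the pairs of untreated lines. The fit was run on simulated counts to check its fold estimates for genes with high counts. That check set no limit on missed or false calls and did not cover genes with low counts. Alternatives were DESeq2 1.42.0, its size factors, no filter, a block for library number, fewer libraries, and each library left out. A group with 0 counts was set at 3 counts for bounds, and intervals cover counting error only. Same-numbered libraries deviated together (correlation 0.101 in HLF, 0.446 in SNU475, 0.132 in PLC/PRF/5), which met the limit of 0.1 for pairing in every line. The main fit nevertheless left this pairing out, and it entered only through the alternative with a block for library number. The library numbers come from the titles, and the PLC/PRF/5 libraries numbered 2 there carry 3 in the deposited names.

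The members and the gene lists were chosen with earlier results of these data known. All members are named. From each list the text draws on the up to 4 genes with the smallest p for the mean effect and the up to 2 in each untreated comparison, on locus neighbours as levels, and on the 2 genes most like each member. The results of 1 gene list and of some listed genes are not reported here.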

Additional observations from a re-analysis of the deposited data

How the results depend on the processing

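Counts of genes called for lactate depended on the fit, while the members' counts changed little. Over all genes, edgeR called 0 in HLF, against 41 with DESeq2, 111 with no filter on low counts, 3 with the block for library number, 27 without both SNU475 libraries numbered 2 and 49 from the 4 libraries compared alone. In SNU475 it called 0, against 274, 414 and 46 with the first 3 of these. In PLC/PRF/5 it called 0, against 91, 188, 121, 137 and 884. For the mean effect it called 77, against 977, 922, 1268 and 516 with the first 4, and for the interaction 0, against 9, 136 and 6 with the first 3. Members called moved to 1 in PLC/PRF/5 without both SNU475 libraries numbered 2 and from the 4 libraries alone, and to 1 for the mean effect with no filter and with the block. With each library left out in turn, members called ranged over 0 to 0 in HLF, PLC/PRF/5 and the interaction, 0 to 2 in SNU475 and for the mean, 4 to 8 in PLC/PRF/5 over HLF, 7 to 9 in PLC/PRF/5 over SNU475 and 5 to 6 in HLF over SNU475. All genes called ranged over 0 to 0 in HLF, 0 to 1817 in SNU475, 0 to 17 in PLC/PRF/5, 0 to 1508 for the mean, 0 to 187 for the interaction, 5368 to 9115 in PLC/PRF/5 over HLF, 6152 to 10241 in PLC/PRF/5 over SNU475 and 5198 to 8578 in HLF over SNU475. A group left with 1 library was assumed to vary like the others.

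Some directions changed. Lactate in SNU475 gave −0.003 (no filter), −0.07 (without both libraries numbered 2) and −0.0047 (4 libraries alone) for CCND3. Without both SNU475 libraries numbered 2, CDKN2A gave −0.01 for lactate in SNU475 and −0.05 for the mean effect, and CDKN2C gave −0.21 in HLF over SNU475. With each library left out, the lactate effect in HLF ranged from −0.68 to 0.03 for CCND1, −0.40 to 0.06 for CCND3, −0.14 to 0.18 for CDKN1A, −0.26 to 0.02 for CDKN2A and −0.08 to 0.49 for RB1. In SNU475 it ranged from −0.57 to 2.60 for CCND2 and −0.22 to 0.30 for CCND3, and in PLC/PRF/5 from −0.04 to 0.17 for CDKN1B, −0.12 to 0.03 for CDKN2A and −0.04 to 0.14 for CDKN2B. The mean effect ranged from −0.15 to 0.03 for CCND3 and −0.02 to 0.07 for CDKN2A. Between untreated lines CCND1 ranged from −0.05 to 0.71 in PLC/PRF/5 over SNU475, CDKN2A from −0.25 to 0.04 and CDKN2C from −0.19 to 0.40 in HLF over SNU475. The cause was not tested in any of these. Of 840 single-gene values with a library left out, 795 kept direction and side of the threshold, as did 383 of 402 under the other settings. These counts are no measure of stability, since the library left out often lay outside the groups compared and could move the value little. Interaction values have no direction and were judged by the threshold alone. Without the filter on low counts, CDKN2A in PLC/PRF/5 over HLF (adjusted p = 0.16) and CDKN1B in PLC/PRF/5 over SNU475 (adjusted p = 0.0829) were no longer called by edgeR, and CCND1 was in HLF over SNU475 (0.00283). With the block for library number, 3 residual degrees of freedom remained, and beside the results named with it above it changed no other call of a member. Depth limits CCND2 outside SNU475 and CDKN1C in PLC/PRF/5 and HLF.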
